A study of Mus musculus with 6 samples.

Results

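The potassium channel genes of mouse germinal vesicle (GV) oocytes, the fully grown oocytes that are still arrested before meiotic maturation, were described in WT and Bnc1tr/tr mice. The members were all genes whose symbol begins with Kcn followed by letters and a digit, with the antisense transcript Kcnq1ot1 left out. They numbered 65 of the 17577 genes listed. The RefSeq annotation names 93 protein-coding genes of this form, and those beyond the 65 were not analysed here.

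Potassium channels let potassium leave the cell along its gradient and thereby set the resting potential. They form several families, namely voltage-gated channels with their auxiliary subunits, channels opened by intracellular calcium or sodium, inward rectifiers, and two-pore-domain leak channels. The sodium pump builds the gradient that all of them use. In the oocyte, as in other cells, potassium conductance contributes to the membrane potential, which acts on the entry of calcium.

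The oocytes were from the ovaries of 12-week-old C57BL/6 J mice. The 3 Bnc1tr/tr libraries were from mice with a frameshift in both copies of Bnc1, which encodes the zinc finger protein basonuclin 1, and the 3 WT libraries were from mice with both alleles intact. The allele is carried by every cell of the animal, so the oocytes also grew in mutant follicles. By the study's methods the mice were littermates given pregnant mare serum gonadotropin and the cDNA of a single oocyte was amplified by a modified Smart-seq2 procedure, which primes on poly(A) tails. The study calls its samples biological replicates, but neither it nor the labels say that the 3 libraries of a genotype came from separate mice, and p-values then measure only the spread between these libraries.

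Levels are FPKM, fragments per kilobase of transcript per M (mega) mapped fragments, so that levels of different genes can be set side by side per length. The steps between low values put the depth at 12.66 to 21.98 M fragments per library, and 3 fragments on a transcript of 1 kb then equal 0.136 to 0.237 FPKM. A gene was taken as expressed in a genotype at 1 FPKM or more in each of its 3 libraries and as not expressed below 0.25 FPKM in all 3. FPKM is relative to the library, so more of a transcript per oocyte and less of the other RNA cannot be told apart. The allele was checked first: Bnc1 read 13.17, 12.54 and 16.23 FPKM in WT and 9.04, 6.51 and 5.83 FPKM in Bnc1tr/tr, which did not overlap (log2 fold change -0.89, SE 0.20, limma adjusted p = 0.0090). A frameshift allele can still make a transcript, so its level does not by itself check the genotype.

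All 12 oocyte markers on the list were expressed in both genotypes, with a summed level of 17196 to 19069 FPKM in WT and 15705 to 17215 FPKM in Bnc1tr/tr. Mos was called higher (means of 395 FPKM in WT and 737 FPKM in Bnc1tr/tr) and Zp2 lower (655 and 387 FPKM), and the other 10 were not called. The Bnc1tr/tr libraries had more genes at 1 FPKM or more (10682 to 11035) than the WT libraries (9518 to 9748). Markers of granulosa or cumulus cells summed to 22.29 to 39.72 FPKM in WT and 46.28 to 64.11 FPKM in Bnc1tr/tr over the 10 of 13 that were listed. Of the 5 tested, Fshr (means of 0.35 FPKM in WT and 5.25 FPKM in Bnc1tr/tr) and Cyp11a1 (1.26 and 5.63 FPKM, in the same order) were called higher, while Cyp19a1 (23.3 and 35.1 FPKM), Nr5a2 (3.72 and 5.45 FPKM) and Inha (3.42 and 0.693 FPKM) were not called. Hsd17b1 and Fst had lower means in Bnc1tr/tr and were under the filter of the test, and the defining marker Foxl2 did not pass 0.03 FPKM in any of the 6 libraries. Theca or stroma markers summed to 1.73 to 2.27 FPKM in WT and 6.38 to 10.31 FPKM in Bnc1tr/tr, mostly from Dcn, with Col1a1 at or near 0 in both. Endothelial markers summed to 10.24 to 11.74 FPKM in WT and 5.44 to 8.17 FPKM in Bnc1tr/tr, immune markers to 66.2 to 97.09 and 61.01 to 124.32 FPKM, and neuronal markers to 46.05 to 78.62 and 59.05 to 86.21 FPKM. The immune sums were mostly C1qb (means of 80.9 FPKM in WT and 60.8 FPKM in Bnc1tr/tr). Of the 7 immune markers, 5 read 0 in all WT libraries, which no marker did in Bnc1tr/tr. There C1qa read 0.61 to 1.66 FPKM and Lyz2 0 to 47.97 FPKM. Kdr (means of 0.097 FPKM in WT and 0.903 FPKM in Bnc1tr/tr) and Snap25 (0.087 and 1.24 FPKM) were higher without overlap. Pecam1 (9.11 and 4.01 FPKM) was called lower. The part of these differences in the levels below was not tested.

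The oocyte expressed few of the potassium channel genes. In WT, 14 of the 65 members (21.5%) were expressed, against 51% of all listed genes. In Bnc1tr/tr 19 members (29.2%) were expressed, against 57.2% of all listed genes, and these included all 14 of WT. Another 24 members (36.9%) were not expressed in either genotype, against 15.2% of all listed genes. The latter included the Kv2 pore gene Kcnb2, the Kv3 pore gene Kcnc4 and the G protein-gated inward rectifier genes Kcnj3 and Kcnj5, and none of the 24 passed 0.24 FPKM in any library. The remaining 22 members lay between these limits in at least 1 genotype.

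**Figure D1:**
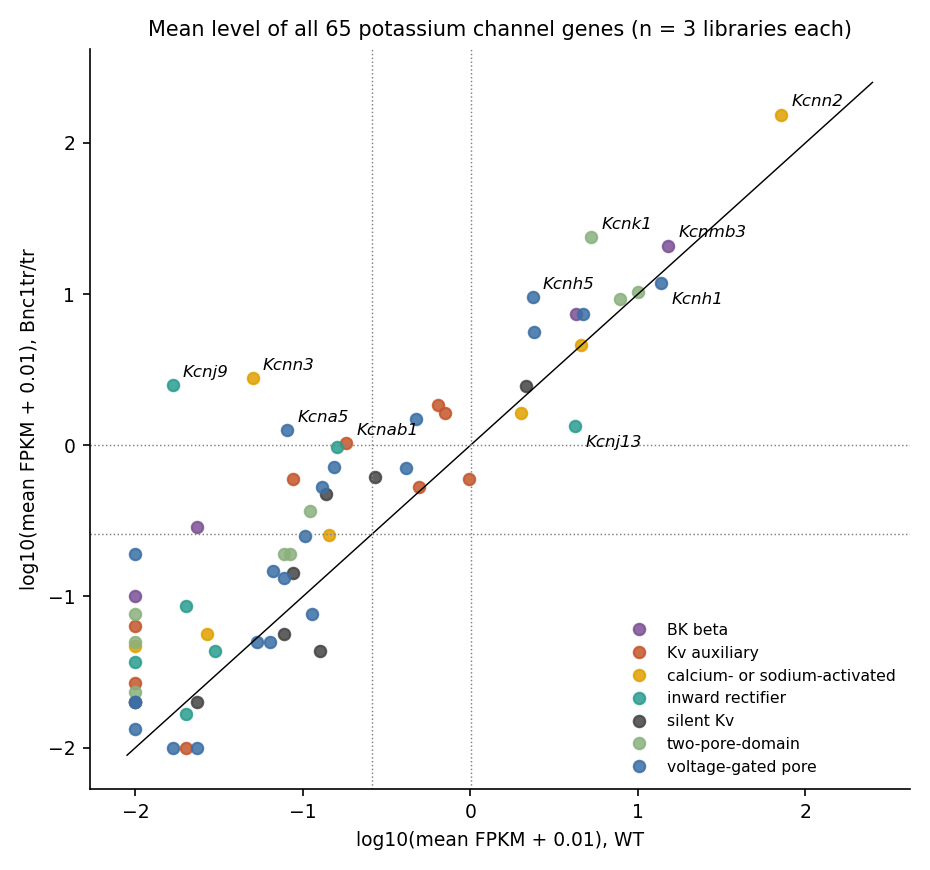
Mean FPKM of each of the 65 potassium channel genes in WT (x axis) and Bnc1tr/tr (y axis), n = 3 libraries each, on a log10 scale after adding 0.01, coloured by family. Dotted lines mark 0.25 and 1 FPKM and the solid line equal levels. Kcnj9, Kcnn3, Kcna5 and Kcnab1 stand at the upper left, with means above 1 FPKM in Bnc1tr/tr and below 0.25 FPKM in WT, and no gene stands in the opposite corner.

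A single gene stood at about the level of all other members together. Kcnn2, which encodes the small-conductance calcium-activated channel SK2, read 65.98, 76.06 and 71.77 FPKM in WT and made up 40.4% to 52.3% of the summed level of all members. Below it in WT came Kcnmb3 at 15.1 ± 5.85 FPKM (SD, n = 3), a beta subunit of the large-conductance BK channel, and Kcnh1 at 13.6 ± 0.313 FPKM, the voltage-gated channel EAG1. The two-pore-domain genes Kcnk13 (9.94 ± 2.0 FPKM) and Kcnk18 (7.82 ± 1.78 FPKM) followed.

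A lower tier of WT genes lay between 1.98 and 5.22 FPKM in the mean. In falling order these were Kcnk1, Kcnq1, Kcnn4, Kcnmb2, Kcnj13, Kcnh3, Kcnh5, Kcng4 and Kcnma1. Of the 13 neighbouring pairs in the WT order, 3 had ranges over the libraries that did not overlap, namely Kcnn2 from Kcnmb3, Kcnh1 from Kcnk13, and Kcnj13 from Kcnh3. The ranges of all other neighbours overlapped. In Bnc1tr/tr, 2 of 18 neighbouring pairs had ranges that did not overlap, Kcnn2 from Kcnk1 and Kcnmb3 from Kcnh1.

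The BK channel was uneven among its subunits. Its pore gene Kcnma1 read 1.10 to 2.46 FPKM in WT, while the beta subunit gene Kcnmb3 read 8.86 to 20.49 FPKM, above the pore gene in every library. The gamma subunit genes Lrrc38, Lrrc52 and Lrrc55 did not pass 0.25 FPKM in any library.

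Between genotypes, the summed level of the members was 163.36, 165.67 and 137.31 FPKM in WT and 285.45, 301.34 and 284.85 FPKM in Bnc1tr/tr. The groups did not overlap, also without Kcnn2 (65.54 to 97.38 against 128.81 to 142.81 FPKM). No test was made of a sum over the members. Gene by gene, a limma fit on log2(FPKM + 1) took in the 10560 listed genes whose mean over the 6 libraries reached 1 FPKM, and 18 members among them. A call required the adjusted p to be below 0.05 and the log2 fold change to exceed 0.5 in size, and folds on this scale understate the change of low genes. Of the 18, 8 were called higher and 1 lower in Bnc1tr/tr, and 9 were not called, where 24.1% of all tested genes were called higher and 7.68% lower (31.8% in either direction). In 8 of the 18 every Bnc1tr/tr library was above every WT library and in 2 below, against 32.7% and 14.1% of all tested genes. The median log2 fold change of the 18 was 0.61 and that of all tested genes 0.15. Under quantile normalization the counts over all tested genes were 1670 higher and 1811 lower, and with upper-quartile scaling 1812 and 1804. Without Bnc1tr/tr replicate 1, the members called higher went from 8 to 3. The shares of the 18 lean upward by construction, since 4 of the 18 (Kcnn3, Kcnj9, Kcnip1 and Kcnab2) had a WT mean under 1 FPKM and entered the fit through their Bnc1tr/tr levels.

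Over all 65 members without the filter, 12 (18.5%) were called higher and 1 lower, near the 15.5% called higher and 3.82% called lower among all listed genes. In 21 members (32.3%) every Bnc1tr/tr library was above every WT library, against 28.2% of all listed genes, and in 2 members (3.08%) the reverse held, against 9.78%. The share of the family that was higher in Bnc1tr/tr was thus close to that of the transcriptome. The results below are about which channels these were.

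**Figure D2:**
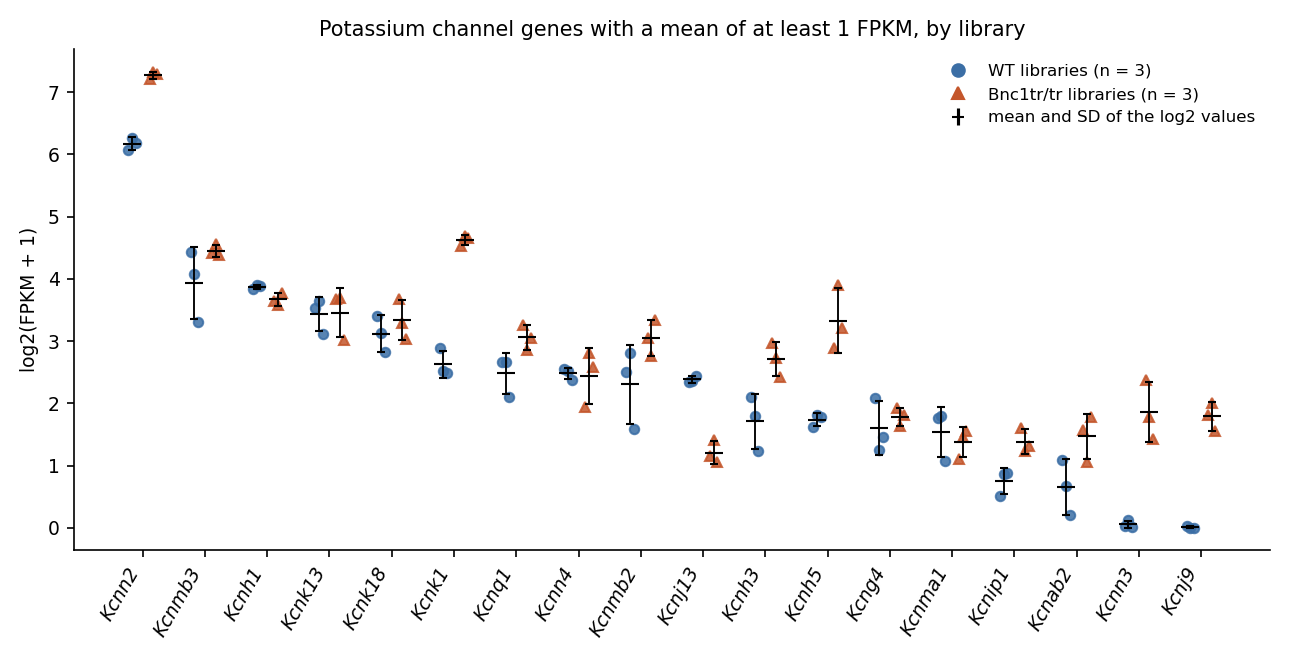
Level of each of the 18 tested potassium channel genes as log2(FPKM + 1), ordered by WT mean, with WT libraries as circles, Bnc1tr/tr libraries as triangles, and the mean and SD of the log2 values in black. Kcnn2 lies far above the rest in both genotypes, Kcnk1 moves from the middle of the WT order to near the top, and Kcnn3 and Kcnj9 sit at or near 0 in WT.

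Among the leak channels, Kcnk1, which encodes the weak inward rectifier TWIK-1 of the two-pore-domain family, rose. It read 6.37, 4.71 and 4.59 FPKM in WT and 22.14, 24.81 and 24.34 FPKM in Bnc1tr/tr. The groups were far apart and tight, with a 4.55-fold ratio of means (log2 fold change 2.0, SE 0.17, limma adjusted p = 5.2e-05). This was the largest fold of the 18 members on the log2(FPKM + 1) scale only, since with a pseudocount of 0.1 the log2 fold change was 2.18 for Kcnk1, 4.58 for Kcnj9 and 4.31 for Kcnn3. Its mean moved from place 6 to place 2 in the order of the members, where its range overlapped with that of Kcnmb3.

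The other expressed leak channels were not called. Kcnk13, which encodes THIK-1, read 10.56, 11.56 and 7.70 FPKM in WT and 11.80, 11.86 and 7.06 FPKM in Bnc1tr/tr, with a log2 fold change of 0.024 (SE 0.24, limma adjusted p = 0.95). Kcnk18, which encodes the calcium-responsive channel TRESK, had means of 7.82 FPKM in WT and 9.25 FPKM in Bnc1tr/tr, with overlapping groups (log2 fold change 0.21, SE 0.22, limma adjusted p = 0.51). The sign of both folds turned under other scalings. The remaining 6 two-pore-domain genes were under 1 FPKM in every library.

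Of the calcium-activated channels, Kcnn2 rose from its already leading level to 146.91, 158.53 and 156.04 FPKM in Bnc1tr/tr. Every Bnc1tr/tr library was above every WT library, with a 2.16-fold ratio of means (log2 fold change 1.10, SE 0.15, limma adjusted p = 0.00081). Its close relative Kcnn3, which encodes SK3, was nearly silent in WT at 0.02, 0.09 and 0.01 FPKM and read 4.20, 2.44 and 1.68 FPKM in Bnc1tr/tr (log2 fold change 1.81, SE 0.24, limma adjusted p = 0.00058). Kcnn3 had a WT mean under 1 FPKM and passed the filter only through its Bnc1tr/tr levels. The 2 genes remained far apart in level in the mutant, Kcnn2 at 153.8 FPKM and Kcnn3 at 2.77 FPKM in the mean.

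The third SK gene, Kcnn1, stayed low, at 0.03 to 0.21 FPKM in WT and 0.20 to 0.33 FPKM in Bnc1tr/tr. Kcnn4, which encodes the intermediate-conductance channel, was not called, with means of 4.59 ± 0.333 FPKM in WT and 4.61 ± 1.62 FPKM in Bnc1tr/tr (log2 fold change -0.036, SE 0.23). Kcnma1 was not called either (log2 fold change -0.16, SE 0.24, limma adjusted p = 0.64). The BK beta subunit genes Kcnmb3 and Kcnmb2 had higher means in Bnc1tr/tr, 20.9 ± 1.49 and 7.38 ± 1.65 FPKM, than in WT, 15.1 ± 5.85 and 4.23 ± 2.02 FPKM. Their groups overlapped, and they did not pass the test (limma adjusted p = 0.18 and 0.095).

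Of the 21 voltage-gated pore genes, 4 were tested and 2 rose, both in the EAG family. Kcnh5, which encodes EAG2, read 2.07, 2.51 and 2.44 FPKM in WT and 6.39, 13.92 and 8.23 FPKM in Bnc1tr/tr. The mutant libraries were well above WT but spread among themselves (log2 fold change 1.59, SE 0.25, limma adjusted p = 0.0016). Its close relative Kcnh1, which encodes EAG1, went the other way in value, at 13.31, 13.93 and 13.70 FPKM in WT and 11.48, 10.99 and 12.74 FPKM in Bnc1tr/tr. The Kcnh1 groups did not overlap, and the difference was small and not called (log2 fold change -0.20, SE 0.15, limma adjusted p = 0.35).

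Kcnh3, which encodes the ELK-type channel Kv12.2, read 3.31, 2.46 and 1.36 FPKM in WT and 6.80, 5.66 and 4.39 FPKM in Bnc1tr/tr. The groups did not overlap (log2 fold change 1.0, SE 0.25, limma adjusted p = 0.015). Its call was lost without Bnc1tr/tr replicate 1 (log2 fold change 0.87, adjusted p = 0.058) and under quantile normalization, with adjusted p from 0.0029 to 0.059 over its alternatives. Kcnq1, the pore gene of the slow delayed rectifier, read 5.36, 5.37 and 3.29 FPKM in WT and 8.59, 6.26 and 7.32 FPKM in Bnc1tr/tr without overlap, but was not called (log2 fold change 0.58, SE 0.21, limma adjusted p = 0.065).

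The silent subunit gene Kcng4, whose product forms channels only together with Kv2 subunits, was expressed in both genotypes at means of 2.12 and 2.46 FPKM and was not called. The Kv2 pore gene Kcnb2 did not pass 0.21 FPKM in any library.

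Of 10 auxiliary subunit genes of voltage-gated channels, none was expressed in WT, and Kcnab2 and Kcnip1 were expressed in Bnc1tr/tr. Kcnip1, which encodes the Kv4 channel-interacting protein KChIP1, read 0.42, 0.82 and 0.85 FPKM in WT and 2.05, 1.35 and 1.49 FPKM in Bnc1tr/tr, without overlap (log2 fold change 0.63, SE 0.19, limma adjusted p = 0.030). Kcnab2, which encodes Kv beta 2, read 1.13, 0.60 and 0.15 FPKM in WT and 1.96, 1.09 and 2.43 FPKM in Bnc1tr/tr, with overlap (log2 fold change 0.81, SE 0.27, limma adjusted p = 0.046). Both genes had WT means under 1 FPKM and passed the filter only through their Bnc1tr/tr levels. Both calls are fragile. That of Kcnip1 was lost under all 3 other scalings and without Bnc1tr/tr replicate 3, WT replicate 1 or WT replicate 2 (adjusted p = 0.063, 0.092 and 0.066), and that of Kcnab2 under 9 of 12 alternatives, among them without Bnc1tr/tr replicate 1, WT replicate 2 or WT replicate 3 (adjusted p = 0.13, 0.11 and 0.10). Over its alternatives the adjusted p ran from 0.025 to 0.44 for Kcnip1 and from 0.021 to 0.27 for Kcnab2. The Kv4 pore gene listed, Kcnd3, did not pass 0.28 FPKM in any library.

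Among the 7 inward rectifier genes, 2 were tested, of which 1 was called lower and 1 higher. Kcnj15 was under the filter and is given below. Kcnj13, which encodes Kir7.1, was the only member called lower. It read 4.09, 4.14 and 4.43 FPKM in WT and 1.22, 1.67 and 1.08 FPKM in Bnc1tr/tr. The groups were far apart, and the mutant mean was 0.314 of the WT mean (log2 fold change -1.18, SE 0.17, limma adjusted p = 0.00083). It did not vanish, since each Bnc1tr/tr library still held more than 1 FPKM.

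The value of Kcnj13 carries a counting limit. The gene overlaps Gigyf2 on the opposite strand, and 623 of its exon bases (49.1%) are also exon of Gigyf2 in GENCODE. The kit is not stated to mark strand, so reads from these bases cannot be told apart. Gigyf2 itself read 5.69, 4.33 and 2.56 FPKM in WT and 4.60, 3.83 and 4.20 FPKM in Bnc1tr/tr, overlapping groups with a log2 fold change of 0.049 (limma adjusted p = 0.90).

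Kcnj9, which encodes the G protein-gated subunit GIRK3, read 0.02, 0 and 0 FPKM in WT and 2.5, 3.02 and 1.93 FPKM in Bnc1tr/tr (log2 fold change 1.78, SE 0.17, limma adjusted p = 9.8e-05). With a WT mean under 1 FPKM, Kcnj9 passed the filter only through the genotype in which it is high. GIRK3 is known to form channels together with other GIRK subunits. Those listed, Kcnj3 and Kcnj5, did not pass 0.10 FPKM in any library. The neighbour of Kcnj9 on chromosome 1, Kcnj10, begins 11.9 kb away and stayed at 0.01 to 0.18 FPKM in Bnc1tr/tr.

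**Figure D3:**
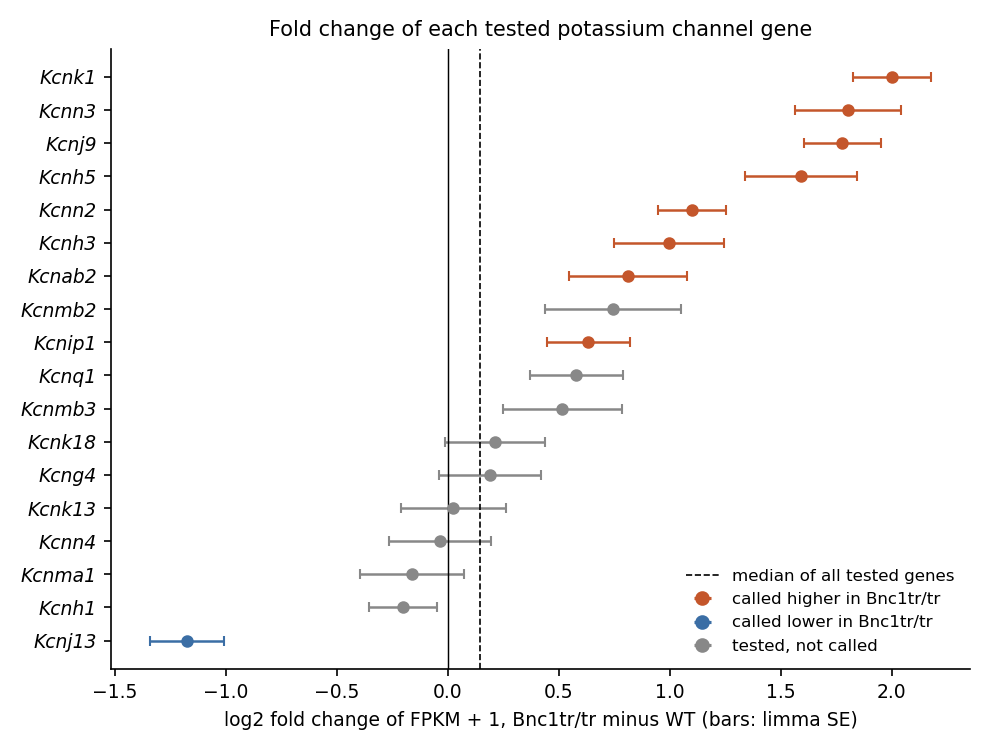
Log2 fold change (Bnc1tr/tr minus WT, on FPKM + 1) of each of the 18 tested potassium channel genes, with its limma SE as the bar, n = 3 libraries per genotype. The dashed line marks the median of all tested genes at 0.15. On this scale Kcnk1 lies farthest to the right at 2.0 and Kcnj13 alone on the left among the calls at -1.18.

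By the definitions above, Kcnj9 and Kcnn3 appeared in the mutant, and no member vanished. The p-values given above for Kcnj9 and Kcnn3 come from these same values and are no separate support. Among all listed genes 189 appeared (1.08%) and 3 vanished (0.0171%, or 0.0335% of the genes expressed in WT). Of the genes that were not expressed in WT, 4.14% appeared, and 40 members were in that state. No member was expressed at 2 FPKM or more in all Bnc1tr/tr libraries from below 0.25 FPKM in WT.

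A weaker form of the same pattern was seen in further members, grouped after their values were seen. In 8 members all WT libraries were below 0.25 FPKM and all Bnc1tr/tr libraries at or above it, against 3.49% of all listed genes, and in 0 members the reverse held, against 0.176%. Besides Kcnn3 and Kcnj9 these were Kcna5, Kcna1, Kcnab1, Kcnj15, Kcne2 and Kcng2. Their levels remain close to that of a few fragments in WT. Only genes below 0.25 FPKM in all WT libraries could show the pattern. Of the 40 members in that state 8 did, against 614 of the 4564 listed genes in that state.

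Kcna5, the Kv1.5 pore gene, read 0.14, 0.07 and 0 FPKM in WT and 1.22, 1.72 and 0.79 FPKM in Bnc1tr/tr. Its neighbour Kcna1, the Kv1.1 pore gene 105 kb away on chromosome 6, read 0.08, 0.17 and 0.18 FPKM in WT and 0.77, 0.82 and 0.52 FPKM in Bnc1tr/tr. Kcnab1, which encodes the Kv beta 1 subunit that binds Kv1 channels, read 0.10, 0.18 and 0.23 FPKM in WT and 1.19, 0.87 and 1.02 FPKM in Bnc1tr/tr. In these 3 genes the lack of overlap between genotypes follows from the rule that grouped them. Without the filter each was called higher (limma adjusted p = 0.0096, 0.013 and 0.0038). These p-values come from the values that picked the genes and are no separate support.

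Kcnj15, the inward rectifier Kir4.2, read 0.10, 0.18 and 0.17 FPKM in WT and 0.96, 1.19 and 0.73 FPKM in Bnc1tr/tr (limma without the filter, adjusted p = 0.0068). Kcnh2, which encodes ERG1, read 0.67, 0.43 and 0.28 FPKM in WT and 1.75, 1.19 and 1.49 FPKM in Bnc1tr/tr (limma without the filter, adjusted p = 0.015). Both were higher in every Bnc1tr/tr library, which for Kcnj15 follows from the grouping rule. Both genes were picked after their values were seen, so these p-values are no separate support either. Kcne2 and Kcng2 did not pass as calls even without the filter.

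The promoters of the members with the clearest gain or loss are shown, so that the letters around their starts can be compared. Each window runs from 250 bases before the annotated start to 50 bases after it, in the direction of transcription, from RefSeq (GRCm38.p6). CG dinucleotides are in capitals.
Kcnj9 (chr1:172329273-172329572, minus strand): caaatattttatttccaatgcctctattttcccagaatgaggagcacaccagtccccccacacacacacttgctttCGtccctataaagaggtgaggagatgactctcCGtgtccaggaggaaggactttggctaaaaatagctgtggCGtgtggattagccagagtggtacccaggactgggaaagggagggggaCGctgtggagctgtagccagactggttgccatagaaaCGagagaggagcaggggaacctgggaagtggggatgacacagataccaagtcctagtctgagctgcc
Kcnn3 (chr3:89519914-89520213, plus strand): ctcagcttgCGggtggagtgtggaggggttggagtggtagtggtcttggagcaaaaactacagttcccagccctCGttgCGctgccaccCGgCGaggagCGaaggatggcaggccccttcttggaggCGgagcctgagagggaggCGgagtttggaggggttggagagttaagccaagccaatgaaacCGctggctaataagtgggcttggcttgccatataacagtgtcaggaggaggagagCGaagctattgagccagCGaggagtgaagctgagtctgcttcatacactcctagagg
Kcnk1 (chr8:125994852-125995151, plus strand): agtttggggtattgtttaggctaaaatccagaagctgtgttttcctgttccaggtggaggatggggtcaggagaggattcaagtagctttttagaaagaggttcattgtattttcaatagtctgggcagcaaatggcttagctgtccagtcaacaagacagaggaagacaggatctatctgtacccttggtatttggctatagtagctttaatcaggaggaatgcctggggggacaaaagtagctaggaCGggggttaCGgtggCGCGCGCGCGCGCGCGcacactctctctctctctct
Kcnj13 (chr1:87394680-87394979, minus strand): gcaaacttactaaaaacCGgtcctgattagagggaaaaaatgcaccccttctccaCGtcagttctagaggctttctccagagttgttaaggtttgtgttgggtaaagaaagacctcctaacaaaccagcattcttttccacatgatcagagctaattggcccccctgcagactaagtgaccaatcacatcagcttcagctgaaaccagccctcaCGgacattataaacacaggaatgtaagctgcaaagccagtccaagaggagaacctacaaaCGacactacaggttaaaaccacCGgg

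These windows hold 5, 11, 10 and 5 CG dinucleotides, in the order shown, and most of those of Kcnk1 lie in 1 alternating run near the start. Over the 13870 listed genes with a window, the median of the most CG-rich window per gene was 18, and over the 44 members with a window it was 16. The 11 members with a window that were expressed in both genotypes had a median of 9, and the 10 that were not expressed in either had a median of 19. The letters TATAAA were found on the same strand at position -29 from the start of Kcnj13 and at -168 from that of Kcnj9, and both strands were searched. Of all listed genes with a window 11.8% hold these letters, and 4 of the 44 members do. A match is a description of the window and not a site of any factor.

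The other potassium handling genes were read from a list of 37 symbols, namely sodium pump subunits, cation-chloride cotransporters, channel partners and intracellular channels. Of these 31 were listed and 14 tested, and 7 were called higher and 1 lower, by the same rule as above, where 24.1% of all tested genes were called higher and 7.68% lower. The count of 7 includes Fxyd5, which entered the fit through its Bnc1tr/tr levels and so leans the count upward by construction. The sodium pump supplied most of the calls. Atp1b1, a beta subunit, read 8.36, 7.75 and 7.16 FPKM in WT and 20, 25.87 and 25.67 FPKM in Bnc1tr/tr (log2 fold change 1.5, SE 0.17, limma adjusted p = 0.00025). The groups were far apart.

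The small FXYD regulators of the pump showed the largest folds of the list. Fxyd4 read 4.17, 5.02 and 1.57 FPKM in WT and 37.86, 34.18 and 19.36 FPKM in Bnc1tr/tr (log2 fold change 2.81, SE 0.35, limma adjusted p = 0.00041). Fxyd6 read 7.53, 6.47 and 8.21 FPKM in WT and 48.87, 44.88 and 32.49 FPKM in Bnc1tr/tr (log2 fold change 2.34, SE 0.20, limma adjusted p = 4.5e-05). In both, the lowest mutant library was above the highest WT library. Fxyd5 was also higher, from a WT mean of 0.423 to a Bnc1tr/tr mean of 3.78 FPKM (log2 fold change 1.76, SE 0.31, limma adjusted p = 0.0026). With a WT mean under 1 FPKM, it passed the filter only through the genotype in which it is high.

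The most abundant pump gene was not among the calls. Atp1b3, another beta subunit, read 137.25, 118.80 and 78.31 FPKM in WT and 122.68, 105.98 and 125.40 FPKM in Bnc1tr/tr, with overlapping groups (log2 fold change 0.12, limma adjusted p = 0.73).

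Other partners of the channels gave few calls. Dpp6, a partner of Kv4 channels, was called higher, from 1.59 ± 0.291 FPKM in WT to 3.44 ± 0.990 FPKM in Bnc1tr/tr (log2 fold change 0.76, limma adjusted p = 0.021), and its call was lost without Bnc1tr/tr replicate 1, Bnc1tr/tr replicate 2 or WT replicate 2 (adjusted p = 0.062, 0.075 and 0.059, and from 0.012 to 0.21 over its alternatives). Dpp10, of the same kind, was not called, at means of 12.4 and 11.03 FPKM. The regulatory subunits of ATP-sensitive channels, Abcc8 and Abcc9, did not pass 0.18 FPKM in any library. The cotransporter genes Slc12a2 and Slc12a7 were not called. Amigo1, a partner of Kv2 channels, read 0.02 to 0.07 FPKM in WT and 0.18 to 0.36 FPKM in Bnc1tr/tr, and Kcnrg, a regulator of Kv channels, 0.08 to 0.18 and 0.19 to 1.03 FPKM. The pacemaker channel gene Hcn3 did not pass 0.04 FPKM in any library.

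The paired TRIC channels, which carry potassium across the membrane of the endoplasmic reticulum, moved in opposite directions. Tmem38b read 9.40, 6.13 and 5.57 FPKM in WT and 17.35, 13.03 and 16.90 FPKM in Bnc1tr/tr (log2 fold change 1.08, SE 0.22, limma adjusted p = 0.0055). Tmem38a read 13.13, 12.39 and 12.86 FPKM in WT and 6.75, 6.68 and 9.62 FPKM in Bnc1tr/tr (log2 fold change -0.68, SE 0.18, limma adjusted p = 0.019). Neither overlapped between genotypes, and Tmem38a led in WT where Tmem38b led in Bnc1tr/tr. The lysosomal channel gene Tmem175 was not called, at means of 28.2 and 23.9 FPKM. The call of Tmem38a was lost without Bnc1tr/tr replicate 1, Bnc1tr/tr replicate 2 or WT replicate 2 (adjusted p = 0.069, 0.070 and 0.059, and from 0.0054 to 0.070 over its alternatives).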

How the data were processed

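The authors deposited 1 gene table per library in FPKM, rounded to 2 decimals. The submitters' processing notes name HISAT2 2.0.4, Bowtie2 2.2.5, RSEM 1.2.12 and GRCm38.p6. The annotation, any gene filter and the strand setting are not given in the sources used here, and the labels give no batch.

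From these values log2(FPKM + 1) was fitted with limma 3.58.1 (R 4.3.3) over all genes whose mean reached 1 FPKM, genotype as the only term, and p-values were adjusted by Benjamini-Hochberg over all genes tested. The fit was tested on simulated data. Depth was estimated from the spacing of low FPKM values in 2 classes of transcript length, and floors cover counting error only. Exon overlaps and shared 31-base words were taken from GENCODE M21. All 65 members matched RefSeq by gene ID. By these words 7.57% of Kcnn2 and 6.67% of Kcnk1 are shared with other genes, so their values carry some uncertainty.

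The members, the partner list and the markers were chosen with earlier results of these data known. Genes are named where they are Bnc1, called members, the 10 most abundant members of each genotype, members that appear or vanish, and called partners; other genes were added after their values were seen. Alternatives were the pseudocount, the filter, the scaling, the variance model, a replicate block, leaving out each library, and other limits for expressed. A test on counts was not made. Some genes of these lists are not reported here.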

Additional observations from a re-analysis of the deposited data

How the results depend on the processing

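Over the 25 genes with a test that were followed through 335 alternatives, 302 kept direction and call, 24 lost the call and 9 reversed. Of 18 called genes 13 kept the call in all alternatives run for them, and the exceptions were Kcnh3, Kcnip1, Kcnab2, Dpp6 and Tmem38a. A setting in which a gene fell under the filter was not counted for it. Kcnj9 had 11 alternatives and was not tested with a minimum mean of 5 FPKM or with Bnc1tr/tr replicate 1 or 2 left out. Kcnn3 had 12 and was not tested with that minimum or with Bnc1tr/tr replicate 1 left out. The reversals were all of genes not called. Kcnk13 gave -0.23 with upper-quartile scaling, -0.18 with median-ratio scaling, -0.28 with quantile normalization, and -0.086, -0.090 and -0.13 without Bnc1tr/tr replicate 1, Bnc1tr/tr replicate 2 and WT replicate 3. Kcnk18 gave -0.033 with upper-quartile scaling and -0.089 with quantile normalization, and Kcnn4 gave 0.22 without Bnc1tr/tr replicate 1 in a range of -0.22 to 0.22 with 1 library left out.

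The 8 members called higher became 3 with a minimum mean of 5 FPKM, 5 with quantile normalization, 5 with an absolute log2 fold change over 1, and 3 to 8 with 1 library left out. The 3 came without Bnc1tr/tr replicate 1, where Kcnh3 and Kcnab2 lost the call and Kcnn3, Kcnj9 and Kcnip1 fell under the filter of the test. The 1 member called lower became 0 with a minimum mean of 5 FPKM, which leaves Kcnj13 out. Partner genes called higher went from 7 to 4 with that minimum. Partner genes called lower went from 1 to 2 without the filter and with quantile normalization, to 0 with the fold over 1, and to 0 to 1 with 1 library left out. Members expressed in Bnc1tr/tr went from 19 to 12 at 2 FPKM and to 29 at 0.25 FPKM (a limit added after the data were seen), and members that appeared from 2 to 0 at 2 FPKM, 6 at 0.5 FPKM and 8 at 0.25 FPKM.

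Over all genes, 2547 called higher became 1413 with a minimum mean of 5 FPKM, 1670 with quantile normalization and 1418 with the fold over 1. The 811 called lower became 1811 with quantile normalization, 1804 with upper-quartile and 1543 with median-ratio scaling, 259 with the fold over 1, and 416 to 1037 with 1 library left out. The higher share of all calls was 75.8% as reported and 48.0%, 50.1% and 55.5% under these 3 scalings, in that order, which move the median log2 fold change from 0.15 to -0.091, -0.10 and -0.051.

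Same-numbered libraries correlated at 0.28, -0.034 and 0.12 in their deviations from the group means, so the numbers were not taken to pair them. With a replicate block, 2781 genes were called higher and 952 lower, and 8 members were called higher and 1 lower. With 3 libraries per genotype, levels near 3 fragments are not resolved.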
